A study of Arabidopsis thaliana with 12 samples.

Results

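Arabinogalactan proteins (AGPs) and fasciclin-like arabinogalactan proteins (FLAs) of the plant cell surface were described here through 9 genes of Arabidopsis thaliana, 6 FLA genes (FLA1, FLA2, FLA7, FLA8, FLA9 and FLA13) and 3 AGP genes (AGP4, AGP12 and AGP31). They are 9 of the 33319 nuclear gene loci without ribosomal RNA among the 87128 reference sequences counted. The 9 genes were chosen with their counts in these libraries known, so their levels and changes are given as descriptions, without a test. Across the 4 groups, 7 of the 9 had their highest mean in control seedlings and 6 had their lowest mean in seedlings heated to 43 °C after an earlier treatment at 38 °C. These counts include orders that the libraries do not separate. FLA1 and AGP12 overlapped between the groups heated to 43 °C with and without earlier heat, and AGP4 between control and 38 °C alone. The same orders were not counted over all sequences, so nothing is read from these counts. AGP12 went the other way in seedlings heated to 38 °C alone, where its mean was 3.17-fold that of control seedlings.

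All groups are wild-type Col-0, and RNA came from whole seedlings raised in liquid culture on a shaker. The primed heat shock seedlings were 7 days old and had received 2 h at 38 °C and 22 h at 21 °C before 30 min at 43 °C. The heat shock seedlings were 7 days old and received 30 min at 43 °C with no earlier treatment. The priming seedlings were 6 days old and received 30 min at 38 °C, and the control seedlings were 6 days old and were not heated. These durations follow the label of each sample, although the protocol text names 2 h for heating at either temperature. The labels name no unheated group of 7 days, so age and heat cannot be told apart where 7-day and 6-day seedlings are compared. Each group had 3 libraries, with 1 library of each group on each of 3 harvest dates. No label says that the libraries came from separate cultures, so the p-values given below measure only the spread between these samples, which may be technical.

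AGPs are small proteins rich in hydroxyproline whose backbone carries large branched chains of arabinose and galactose, and most are tied to the outer face of the plasma membrane by a glycosylphosphatidylinositol (GPI) anchor. FLAs combine such glycosylated stretches with fasciclin domains, which are adhesion modules also found in animals. Both families are known from cell expansion, root growth, vascular tissue and the reproductive organs.

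Libraries held 72075150 to 152118790 aligned reads, of which 37112430 to 87063684 fell on nuclear loci, and plastid transcripts took 35.5% to 57.4% of the reads. Levels are given as CPM, read counts relative to the library total after scaling by TMM factors, which ranged from 0.648 to 1.44. The summed level of HSP101, HSFA2 and HSP21, a disaggregase, a heat shock factor and a plastid small heat shock protein, was 1922 ± 274 CPM in primed heat shock seedlings, 943 ± 129 CPM in heat shock seedlings, 23039 ± 350 CPM in priming seedlings and 39.9 ± 2.03 CPM in control seedlings (SD, n = 3 each). In this sum every library of the heated groups was above every control library. Between primed and unprimed heat shock these genes did not all go the same way. HSP21 had 820.9 ± 101.5 against 3.76 ± 0.614 CPM and HSP101 1040 ± 190 against 750 ± 106 CPM. HSFA2 had 60.55 ± 11.4 against 189 ± 23.0 CPM. In priming seedlings most of the sum was HSP101, with 20982 ± 434.5 CPM. The 9 members drew 31 to 21633 reads per library, fewest for AGP4 in a primed heat shock library and most for FLA9 in a control library. Together they took 0.0367% ± 0.00135 of the nuclear reads in primed heat shock seedlings, 0.0353% ± 0.000523 in heat shock seedlings, 0.0348% ± 0.00615 in priming seedlings and 0.0680% ± 0.00378 in control seedlings (SD, n = 3 each). These shares are of raw counts, without TMM factors. With them, the members summed to 166.5 ± 9.48 CPM in primed heat shock and 154 ± 3.44 CPM in heat shock seedlings. The sum was 251 ± 60.2 CPM in priming and 293 ± 19.9 CPM in control seedlings. On that scale the priming libraries (320, 221 and 212 CPM) overlapped the control libraries (306, 270 and 303 CPM). In whole seedlings, fewer cells of a type and less RNA per cell cannot be told apart.

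In the reference annotation of assembly TAIR10.1, the members lie on all 5 chromosomes and 7 of them have a single coding exon, as do 23.3% of 27444 protein-coding nuclear loci. FLA1 (AT5G55730, chr5:22558044-22560541, minus strand) and AGP31 (AT1G28290, chr1:9889101-9891015, minus strand) have 2 coding exons each. The share of proline codons was above the median of 4.55% of all loci in 8 members and reached 26.7% in AGP4 (AT5G10430, chr5:3277488-3278461, minus strand) and 25.1% in AGP31. FLA2 (AT4G12730, chr4:7491227-7493080, minus strand) was below that median, at 3.97%. AGP4 overlaps AT5G10435 on the opposite strand, and its value is uncertain because the strand setting of the counting is not given in the sources used here. AGP12 (AT3G13520, chr3:4408925-4409734, plus strand) encodes an arabinogalactan peptide with 60 codons, 4 of them for proline. Its coding sequence, chr3:4409087-4409269 on the plus strand, is shown because AGP12 is the member whose level was higher after 38 °C, and capitals mark the proline codons.
AGP12 coding sequence: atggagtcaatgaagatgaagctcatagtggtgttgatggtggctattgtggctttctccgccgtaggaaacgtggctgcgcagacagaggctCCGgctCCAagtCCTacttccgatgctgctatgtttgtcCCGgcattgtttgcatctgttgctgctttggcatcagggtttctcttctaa

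Promoters were read as the 250 bases before the annotated gene start and searched on both strands, and a match only says that the letters are present. A heat shock element is the site that heat shock factors bind. Its form of 3 units, GAANNTTCNNGAA or TTCNNGAANNTTC, was found in 0.386% of 27443 promoters and in 1 member, FLA1, at 160 to 148 bases before the start. The form of 2 units, GAANNTTC or TTCNNGAA, which the longer form contains, was found in 16.1% of promoters and in FLA1 and FLA2. The TATA box letters TATAAA were found in 47.3% of promoters and in 5 members (FLA2, FLA7, FLA8, AGP4 and AGP12). The G-box CACGTG, the evening element AAAATATCT and the site II element GGCCCA were found in no member, against 6.49%, 2.36% and 13.7% of promoters. The promoters of FLA1 and FLA2 are shown because they hold a heat shock element while both genes were lower in every heated group, and that of AGP12 because it holds none while AGP12 was higher after 38 °C. Capitals mark heat shock elements and TATA boxes. The sequences are from chr5:22560542-22560791 (FLA1, minus strand), chr4:7493081-7493330 (FLA2, minus strand) and chr3:4408675-4408924 (AGP12, plus strand) of TAIR10.1.
FLA1 promoter: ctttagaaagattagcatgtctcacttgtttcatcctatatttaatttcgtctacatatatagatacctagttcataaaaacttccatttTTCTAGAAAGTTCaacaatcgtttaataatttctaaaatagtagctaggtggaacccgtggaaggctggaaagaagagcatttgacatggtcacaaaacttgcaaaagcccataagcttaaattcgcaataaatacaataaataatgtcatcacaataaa
FLA2 promoter: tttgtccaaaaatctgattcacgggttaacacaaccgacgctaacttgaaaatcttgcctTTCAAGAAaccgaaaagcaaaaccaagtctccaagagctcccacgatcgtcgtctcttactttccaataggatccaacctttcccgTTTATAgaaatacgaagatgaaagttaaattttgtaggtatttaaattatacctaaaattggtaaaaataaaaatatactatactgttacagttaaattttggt
AGP12 promoter: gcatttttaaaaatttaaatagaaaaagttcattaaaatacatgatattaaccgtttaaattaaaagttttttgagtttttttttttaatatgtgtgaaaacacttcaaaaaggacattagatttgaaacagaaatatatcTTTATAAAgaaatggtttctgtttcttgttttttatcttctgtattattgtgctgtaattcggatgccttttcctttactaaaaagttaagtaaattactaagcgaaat

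FLA1, FLA2 and FLA8 belong to the group of FLAs with paired fasciclin domains, or 1 such domain, and a GPI anchor, and FLA1 is known from shoot regeneration and early lateral root growth. FLA1 had 2.85, 3.01 and 2.32 CPM in primed heat shock libraries, 2.89, 3.39 and 2.81 CPM in heat shock libraries, 7.77, 7.27 and 8.17 CPM in priming libraries and 9.82, 8.69 and 15.0 CPM in control libraries. Both 43 °C groups overlapped each other and lay below every priming library, and the priming libraries lay below every control library. The fitted log2 change against control was -2.03 ± 0.18 in primed heat shock seedlings, -1.88 ± 0.18 in heat shock seedlings and -0.53 ± 0.17 in priming seedlings (SE). The priming value was -0.28 ± 0.13 without control replicate 3, the highest library.

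FLA2 had 10.7, 12.3 and 12.2 CPM in primed heat shock libraries, 19.8, 22.7 and 22.6 CPM in heat shock libraries, 28.2, 20.7 and 19.9 CPM in priming libraries and 47.6, 45.5 and 48.3 CPM in control libraries. Heat shock and priming libraries overlapped, all control libraries lay above them, and all primed heat shock libraries lay below them. Against heat shock alone, primed heat shock seedlings had a log2 change of -0.89 ± 0.12, and the values by harvest date were -0.90, -0.89 and -0.89.

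FLA8, also named AGP8, had 3.30, 4.58 and 3.06 CPM in primed heat shock libraries, 5.36, 4.63 and 5.29 CPM in heat shock libraries, 5.20, 7.08 and 6.95 CPM in priming libraries and 24.8, 22.8 and 38.8 CPM in control libraries. Its lowest control library was above the highest library of each heated group. The log2 changes against control were the largest decreases among the members in all 3 heated groups, at -2.97 ± 0.22 in primed heat shock, -2.50 ± 0.21 in heat shock and -2.16 ± 0.21 in priming seedlings (SE).

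FLA7, FLA9 and FLA13 belong to the group of FLAs with 1 fasciclin domain between glycosylated stretches. FLA7 (AT2G04780) had 2.63, 3.34 and 3.08 CPM in primed heat shock libraries, 5.62, 5.62 and 6.30 CPM in heat shock libraries, 12.4, 12.3 and 12.3 CPM in priming libraries and 18.5, 16.7 and 19.1 CPM in control libraries. The 4 groups did not overlap, and FLA7 is the only member of the 9 for which all neighbouring groups in the order of levels were apart. How many of all sequences have their groups apart in this way was not counted, so nothing is read from it. Its log2 change was -2.58 ± 0.11 in primed heat shock, -1.63 ± 0.10 in heat shock and -0.56 ± 0.10 in priming seedlings, each against control (SE).

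FLA9 (AT1G03870), the member with the highest CPM in control seedlings, differed least from control among the FLA members other than FLA13. It had 95.9, 87.7 and 105 CPM in primed heat shock libraries, 79.7, 79.9 and 74.7 CPM in heat shock libraries, 115, 63.5 and 66.9 CPM in priming libraries and 130, 105 and 105 CPM in control libraries. Priming replicate 1 stood apart from the other 2 priming libraries and overlapped the control libraries. The log2 change against control was -0.24 ± 0.18 in primed heat shock, -0.54 ± 0.18 in heat shock and -0.47 ± 0.18 in priming seedlings (SE), and the priming value ranged from -0.80 to -0.32 when 1 library was left out in turn.

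FLA13 (AT5G44130) had 20.9, 18.9 and 17.7 CPM in primed heat shock libraries, 10.1, 9.93 and 8.01 CPM in heat shock libraries, 28.8, 15.3 and 13.6 CPM in priming libraries and 23.4, 18.9 and 9.68 CPM in control libraries. The control libraries spread over 40.4% of their mean as SD and the priming libraries over 43.4%, more than for any other member. In each of the 4 groups replicate 1 was highest and replicate 3 lowest. All primed heat shock libraries lay above all heat shock libraries, with a log2 change of 1.04 ± 0.34 between these groups. With harvest date as a block the same change was 1.05 ± 0.21. Between priming and control the log2 change was 0.15 ± 0.34, and it was -0.73 ± 0.26 with total counts alone as the scale.

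AGP4, a classical AGP known as JAGGER from its role in keeping further pollen tubes away from a fertilised ovule, had the lowest CPM of the members. It had 0.377, 0.482 and 0.318 CPM in primed heat shock libraries, 1.42, 1.07 and 1.89 CPM in heat shock libraries, 2.06, 2.61 and 2.69 CPM in priming libraries and 2.40, 3.33 and 3.26 CPM in control libraries. Priming and control libraries overlapped, while heat shock lay below both and primed heat shock below all other groups. The primed heat shock seedlings differed from those of heat shock alone by a log2 change of -1.88 ± 0.25 or 3.68-fold, the largest such difference among the 9 members, and by harvest date it was -1.91, -1.15 and -2.57. It rests on 31 to 66 reads per library in primed heat shock seedlings and 108 to 217 in heat shock seedlings.

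AGP31 is a chimeric AGP with a proline-rich stretch and a cysteine-containing C-terminal domain, known from vascular tissue. It had 5.53, 6.99 and 5.49 CPM in primed heat shock libraries, 6.15, 4.54 and 4.71 CPM in heat shock libraries, 7.24, 7.86 and 5.94 CPM in priming libraries and 21.0, 26.1 and 27.6 CPM in control libraries. The 3 heated groups overlapped one another and all lay below every control library. The log2 change against control was -2.05 ± 0.15 in primed heat shock, -2.28 ± 0.15 in heat shock and -1.82 ± 0.15 in priming seedlings (SE).

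AGP12 had 24.3, 19.8 and 26.8 CPM in primed heat shock libraries, 22.0, 26.2 and 25.0 CPM in heat shock libraries, 114, 84.5 and 75.2 CPM in priming libraries and 28.1, 22.5 and 35.8 CPM in control libraries. The lowest priming library was above every library of the other groups, which overlapped one another. The log2 change between priming and control was 1.66 ± 0.19, with 2.02, 1.91 and 1.07 by harvest date, and it was 0.77 with total counts alone as the scale, where the median of all sequences moved to -0.88. In the 43 °C groups the log2 change against control was -0.29 ± 0.18 in primed heat shock and -0.24 ± 0.18 in heat shock seedlings (SE).

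**Figure D1:**
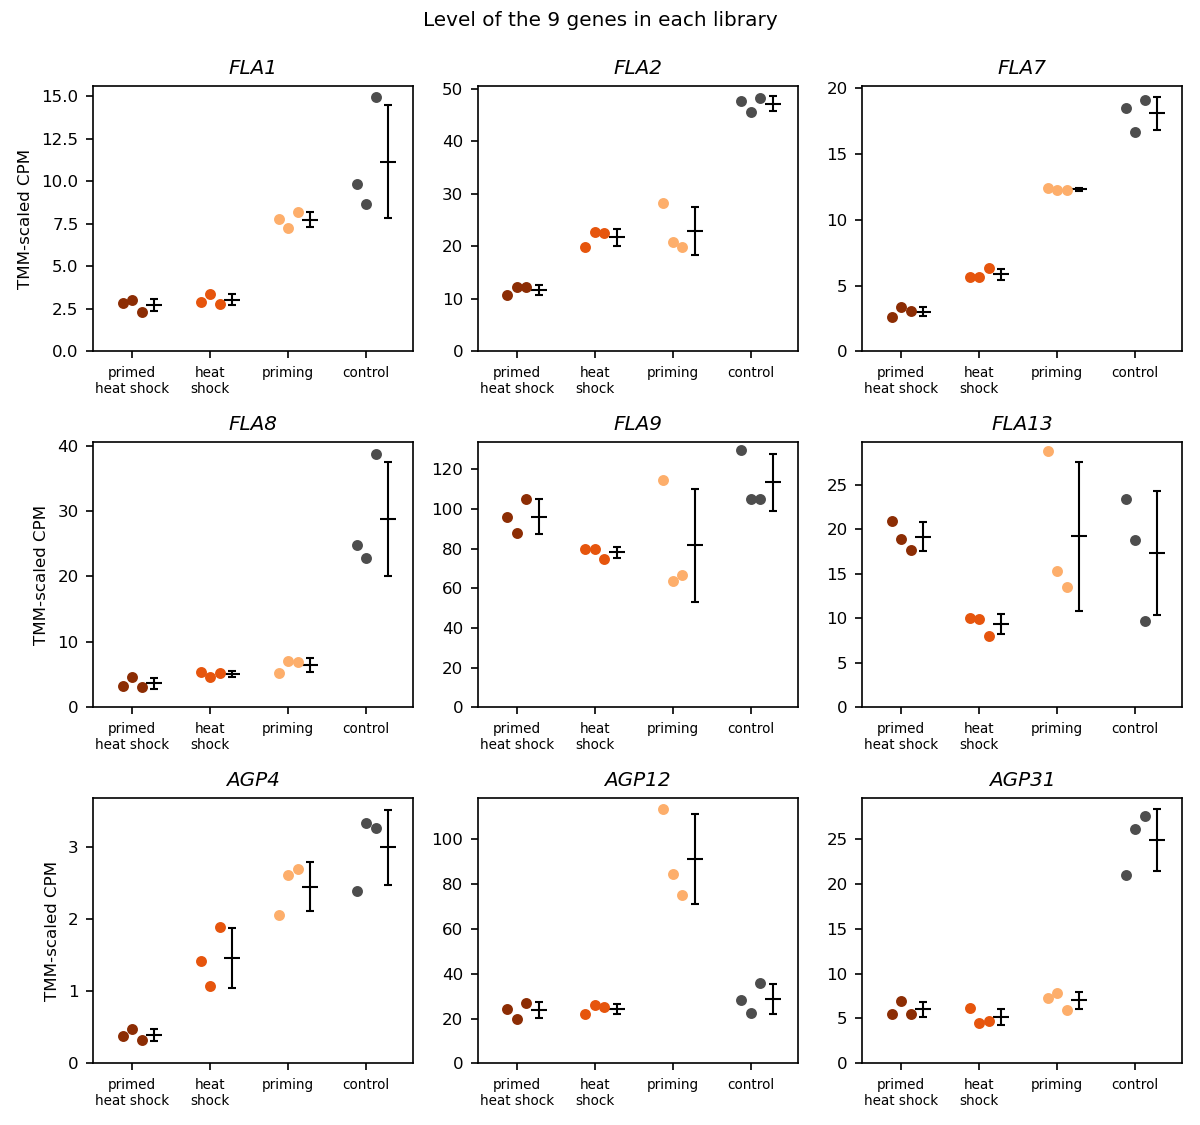
Levels of the 9 members in CPM, each panel on a linear axis from 0, with 1 point per library and the mean ± SD beside the points, for primed heat shock, heat shock, priming and control seedlings (n = 3 each). FLA7 descends in steps that do not overlap, with means of 3.02, 5.85, 12.3 and 18.1 CPM in that order of groups, and AGP12 stands alone in priming seedlings with a mean of 91.2 CPM.

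The effect of a first mild heat was asked by comparing priming with control seedlings of the same age. In priming seedlings 6 members were lower and 1 was higher among those with an adjusted p under 0.05 in edgeR's quasi-likelihood test, where 27.1% of all 26159 sequences tested were lower and 26.7% were higher. The members were chosen on these values, so nothing is read from their count. FLA8 and AGP31 had the largest decreases, 4.48-fold and 3.54-fold, and FLA2 was 2.05-fold lower. The median log2 change of the 9 members was -0.53, and that of all sequences was -0.02.

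The effect of 43 °C without earlier heat was asked by comparing heat shock with control seedlings, whose ages differ. In heat shock seedlings 7 members were lower and 0 higher by the same criterion, where 24.5% of all sequences were lower and 27.9% higher. With harvest date as a block 8 were lower, FLA13 among them, and again nothing is read from either count. FLA8 was 5.65-fold lower, AGP31 4.85-fold and FLA1 3.69-fold. The median log2 change of the members was -1.12, against 0.01 over all sequences.

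The earlier treatment and recovery were considered by comparing primed heat shock with heat shock seedlings of the same age. The labels name no group that had the earlier treatment and recovery without 43 °C. A difference present before the 43 °C step and a changed response to it therefore cannot be told apart. In primed heat shock seedlings 3 members were lower, FLA2, FLA7 and AGP4, and 0 were higher, where 10.7% of all sequences were lower and 12.1% higher. With harvest date as a block 1 member was higher, FLA13, and nothing is read from these counts. FLA1, AGP12 and AGP31 overlapped between these groups, with log2 changes of -0.15 ± 0.18, -0.05 ± 0.18 and 0.23 ± 0.15 (SE). The median log2 change of the members was -0.15, against 0.00 over all sequences.

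Against control, which shares its libraries with the comparisons above, primed heat shock seedlings had 6 lower and 0 higher members, where 27.2% of all sequences were lower and 32.1% higher. FLA8 was 7.86-fold lower, AGP4 7.54-fold and FLA7 5.98-fold. The members were chosen on these values, so nothing is read from this member count or from those that follow. Against priming seedlings, heat shock seedlings had 6 lower and 0 higher members, where 29.0% of sequences were lower and 33.8% higher, and AGP12 had the largest difference with a log2 change of -1.90 ± 0.19. Primed heat shock seedlings set against priming seedlings had 6 lower and 0 higher members as well, where 28.6% of sequences were lower and 34.3% higher, and AGP4 had the largest difference, at -2.63 ± 0.25 (SE).

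**Figure D2:**
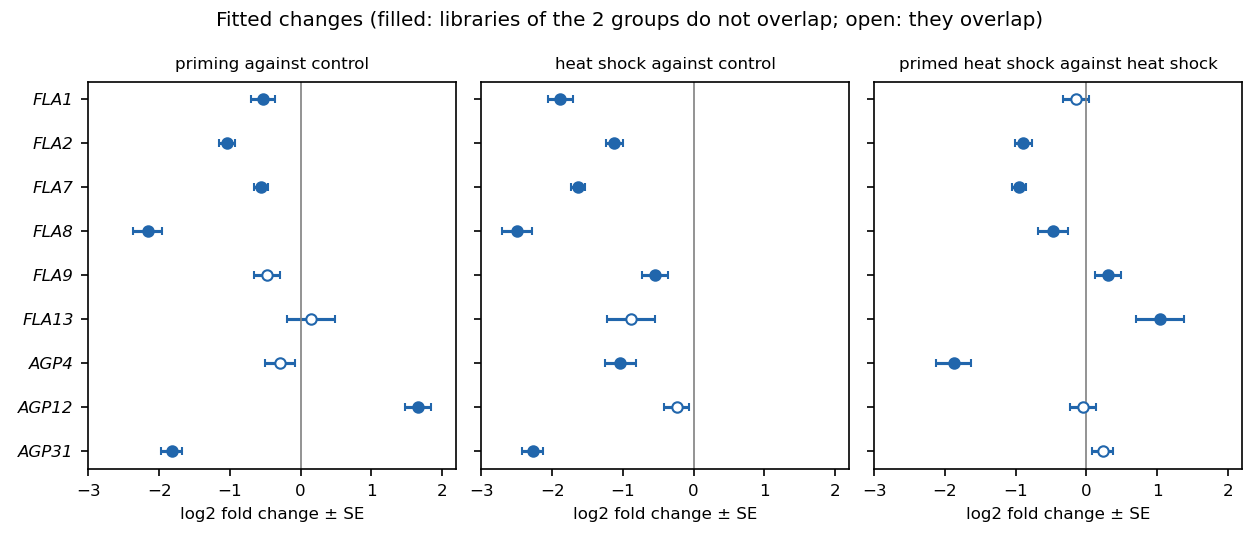
Fitted log2 fold changes of the 9 members with their SE, in 3 panels for priming and for heat shock, each set against control, and for primed against unprimed heat shock. Filled points mark members whose libraries did not overlap between both groups, open points those that did, and FLA8 and AGP31 lie farthest to the left in both comparisons with control, at -2.16 and -1.82 in priming and at -2.50 and -2.28 in heat shock.

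Levels can be compared between genes only per length. Per kilobase of the deposited sequence length, FLA9 was highest in primed heat shock seedlings at 93.0 ± 8.44 CPM, in heat shock seedlings at 75.5 ± 2.85 CPM and in control seedlings at 110 ± 13.8 CPM, with AGP12 next in each of them. In priming seedlings the order of these genes was the other way round, with 177 ± 39.1 CPM per kilobase for AGP12 and 79.0 ± 27.7 CPM per kilobase for FLA9 (SD, n = 3). AGP4 was lowest in all 4 groups, at 0.502 ± 0.106 CPM per kilobase in primed heat shock and 3.83 ± 0.667 CPM per kilobase in control seedlings.

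**Figure D3:**
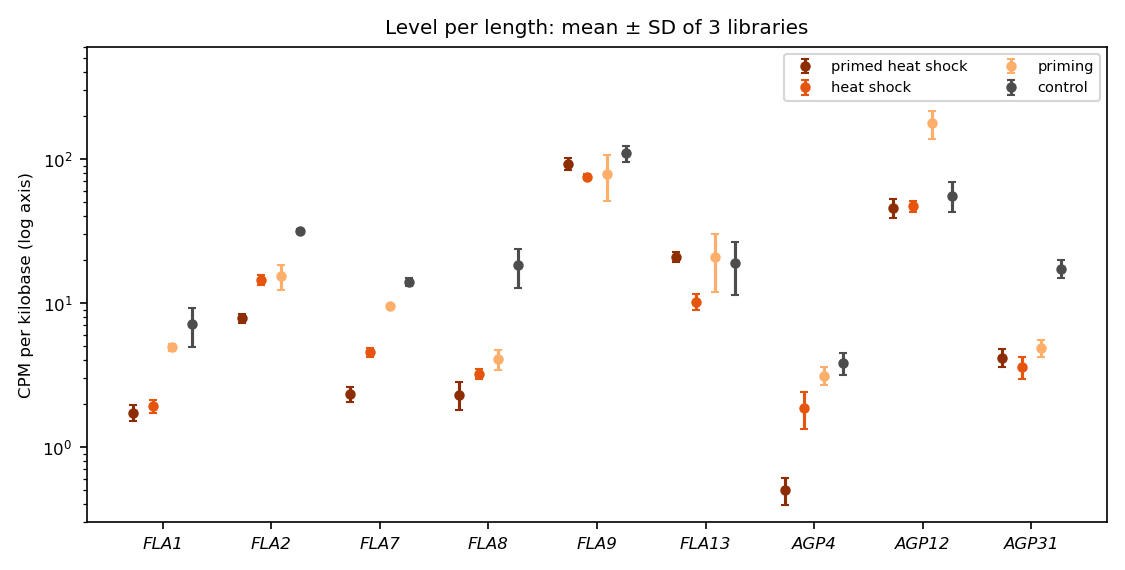
Levels per kilobase of the 9 members on a log scale by group, as means with SD over 3 libraries. FLA9 leads in primed heat shock, heat shock and control seedlings, and AGP12 leads in priming seedlings at 177 CPM per kilobase.

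Over the 12 libraries, the members did not share a single pattern. The log2 CPM of FLA1 and FLA7 followed the mean of the other members most closely, with Pearson's r of 0.93 and 0.91, and FLA9, AGP12 and FLA13 followed it least, with 0.35, 0.25 and 0.16. The pairs FLA8 and AGP31 (0.95), AGP4 and FLA7 (0.94) and FLA7 and FLA1 (0.94) had the highest correlations. These are descriptions over libraries that share depth, scaling and groups. Likeness was also sought outside the lists, among 2919 protein-coding nuclear genes with a symbol and at least 20 CPM on average. Closest to the mean of the 9 members in log2 CPM were SMT3, a sterol methyltransferase (r of 0.98), and ENT1, a nucleoside transporter (0.98). Next came ATCSLA09, a glucomannan synthase (0.97), PUX2, a UBX-domain protein (0.97), and PDIL1-1, a protein disulfide isomerase (0.97). They were followed by SKS6, of the multicopper oxidase-like family (0.96), CIP7, which binds COP1 (0.96), and SOM, a zinc finger protein (0.95). ATCSLA09 averaged 10.3 ± 0.160 CPM in primed heat shock, 13.7 ± 1.22 CPM in heat shock, 23.2 ± 0.839 CPM in priming and 36.7 ± 1.16 CPM in control seedlings (SD, n = 3 each).

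The other genes of both families were listed from their names, and all 42 (15 FLA and 27 AGP genes) passed the filter on low counts. Of these, 12 rose and 11 fell in priming and 10 rose and 21 fell in heat shock, each against control, and 3 rose and 11 fell in primed heat shock against heat shock (edgeR, adjusted p under 0.05 over all sequences). Of all sequences 26.7% rose and 27.1% fell in priming, 27.9% rose and 24.5% fell in heat shock, and 12.1% rose and 10.7% fell in the third comparison, so that the shares of these 42 genes in priming were near those of all sequences. Their median log2 changes were -0.16, -0.53 and -0.28 in that order of comparisons. Of the 19 with at least 5 CPM in some group, 9 rose and 7 fell in priming and 1 rose and 13 fell in heat shock. In primed heat shock against heat shock 0 of these 19 rose and 9 fell. Of the 23 with less, 3 rose and 4 fell, 9 rose and 8 fell, and 3 rose and 2 fell in the same order. Some of these 23, such as FLA20, were near 0 in control seedlings. They could pass the filter only through groups where they were higher, so nothing is read from their rise. The cut of 5 CPM uses the highest group mean, so some of the 19 pass it only through 1 group. AGP30 passes it only in control seedlings (5.02 CPM) and AGP20 only in priming seedlings (5.62 CPM). Nothing is read from the split of the 42 genes at that cut. The FLA and AGP genes divided in priming seedlings, where 3 FLA genes rose and 8 fell but 9 AGP genes rose and 3 fell, a difference that was not tested. With total counts alone as the scale, 2 of these FLA genes rose and 10 fell in priming seedlings, 4 AGP genes rose and 14 fell, and in heat shock seedlings 6 of the 42 rose and 25 fell.

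Among the AGPs, the arabinogalactan peptides other than AGP12 number 11, a grouping made after the values were seen. In priming seedlings 7 of them rose and 1 fell, with a median log2 change of 0.96, but 3 rose and 4 fell with total counts alone as the scale, with a median of 0.10 where that of all sequences was -0.88. With TMM factors 26.7% of all sequences rose and 27.1% fell in priming. AGP22 rose with a log2 change of 1.81 ± 0.16 (adjusted p = 3.34e-07), to 30.8 ± 3.14 CPM in priming against 8.80 ± 1.35 CPM in control seedlings. AGP15, the most abundant of them, rose by 1.64 ± 0.20 on the log2 scale (adjusted p = 2.85e-05), to 179 ± 16.6 CPM in priming against 57.5 ± 16.2 CPM in control seedlings. AGP21 rose by 1.40 ± 0.22, AGP13 by 1.19 ± 0.25, AGP24 by 1.09 ± 0.21 and AGP14 by 0.96 ± 0.20. All 6 named peptides were higher in priming on all 3 harvest dates, and the calls of AGP13, AGP14 and AGP24 were lost with total counts alone as the scale.

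In primed heat shock against heat shock, 0 of these 11 peptides rose and 6 fell, where 12.1% of all sequences rose and 10.7% fell. AGP22 fell to 2.59 ± 0.533 CPM in primed heat shock seedlings, against 12.4 ± 2.04 CPM in heat shock seedlings, a log2 change of -2.25 ± 0.17 (adjusted p = 2.81e-07). AGP14 fell by 2.12 ± 0.22 on the log2 scale, to 1.64 ± 0.504 CPM in primed heat shock against 7.06 ± 1.23 CPM in heat shock seedlings. AGP12, a member of the same class, had 23.6 ± 3.55 CPM in primed heat shock and 24.4 ± 2.17 CPM in heat shock seedlings (SD, n = 3 each).

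Classical AGPs and their relatives moved in both directions. AGP1, a classical AGP, rose in priming seedlings to 72.4 ± 6.79 CPM against 7.00 ± 1.39 CPM in control seedlings, a log2 change of 3.37 ± 0.31 (adjusted p = 6.40e-06), while heat shock seedlings had 7.10 ± 2.01 CPM. AGP2 rose in priming by 0.88 ± 0.19, a call lost with total counts alone as the scale, and fell in heat shock by 1.09 ± 0.20 on the log2 scale, each against control. AGP9 fell in priming to 3.45 ± 0.0290 CPM, and in heat shock to 2.82 ± 0.348 CPM, against 7.99 ± 2.24 CPM in control seedlings. AGP18, a lysine-rich AGP known from the ovule, fell in heat shock against control by 1.38 ± 0.19 on the log2 scale. AGP30, a relative of AGP31 known from roots, fell in heat shock seedlings to 0.285 ± 0.171 CPM against 5.02 ± 2.48 CPM in control seedlings, a log2 change of -4.11 ± 0.43 (adjusted p = 8.73e-06).

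Of the other FLAs, FLA11, known from secondary walls of stems, fell in priming by 0.42 ± 0.13 and in heat shock by 1.47 ± 0.13 on the log2 scale, and its call in priming was lost without priming replicate 2. FLA15 fell to 6.98 ± 0.754 CPM in priming and 6.63 ± 0.424 CPM in heat shock seedlings, against 13.97 ± 3.16 CPM in control seedlings. FLA16 fell to 6.97 ± 0.484 CPM in priming and 4.08 ± 0.722 CPM in heat shock seedlings, against 13.1 ± 1.01 CPM in control seedlings. In primed heat shock against heat shock, 1 other FLA rose, FLA4, known as SOS5 from salt-sensitive root growth, with 2.93 ± 0.136 CPM in primed heat shock and 1.38 ± 0.200 CPM in heat shock seedlings (log2 change 1.08 ± 0.23, adjusted p = 0.00268). In the same comparison 1 fell, FLA15, by 0.64 ± 0.15 on the log2 scale (adjusted p = 0.0056). FLA4 had 0.782 ± 0.353 CPM in priming and 3.31 ± 0.543 CPM in control seedlings, and it was named after its values were seen.

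**Figure D4:**
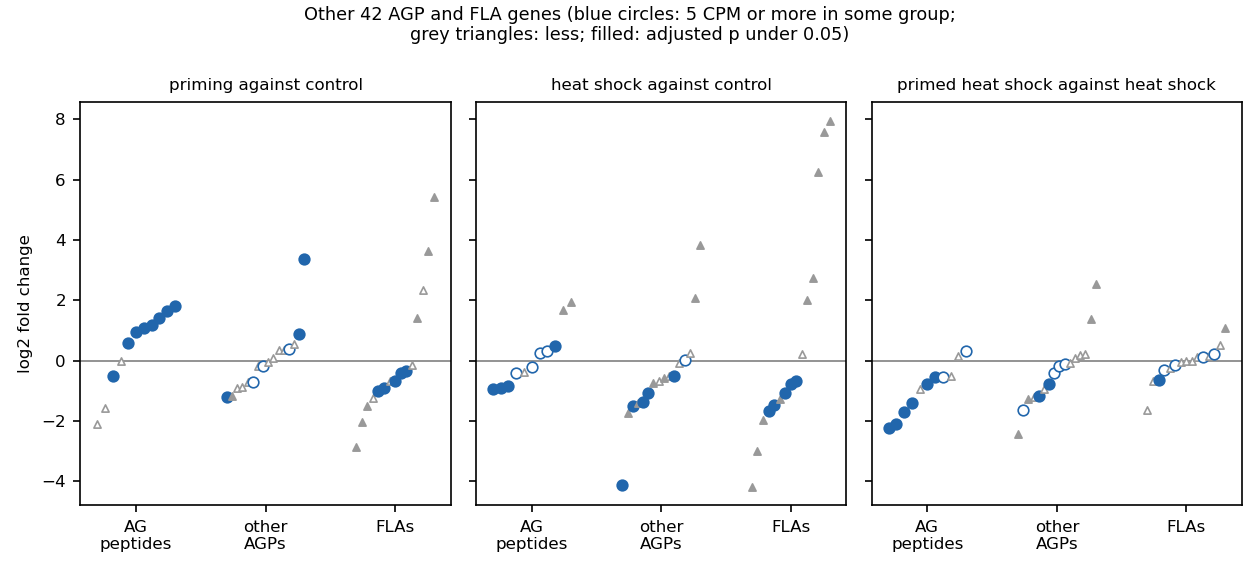
Fitted log2 fold changes of the 42 FLA and AGP genes that are not among the 9 members, 1 point per gene ordered by its change within each class, in 3 panels for priming and for heat shock, each against control, and for primed against unprimed heat shock. Blue circles have at least 5 CPM in some group, grey triangles less, and filled symbols an adjusted p under 0.05; the blue AGP1 circle stands at 3.37 in priming and the blue AGP30 circle at -4.11 in heat shock, both among the other AGPs.

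Root and shoot markers were read beside these results as signs of the organs in each sample, and all of them were detected in every group. The summed level of 9 root markers was 769 ± 3.43 CPM in primed heat shock, 760 ± 86.1 CPM in heat shock, 493 ± 35.4 CPM in priming and 708 ± 103 CPM in control seedlings (SD, n = 3 each). Most of that sum was PYK10, a root beta-glucosidase, with 661 ± 11.9 CPM in primed heat shock, 457 ± 40.2 CPM in heat shock, 258 ± 5.57 CPM in priming and 454 ± 70.7 CPM in control seedlings. The other 8 root markers summed to 107 ± 14.2 CPM in primed heat shock, 303 ± 113 CPM in heat shock, 235 ± 34.8 CPM in priming and 255 ± 37.4 CPM in control seedlings. Over all sequences 26.7% rose and 27.1% fell in priming, and 27.9% rose and 24.5% fell in heat shock. In primed heat shock against heat shock 12.1% rose and 10.7% fell. Of the 9 root markers, 0 rose and 4 fell in priming, 0 rose and 1 fell in heat shock, and 1 (PYK10) rose and 4 fell in primed heat shock against heat shock. Scaled by total counts alone, 0 rose and 8 fell in priming, and 0 rose and 7 fell in heat shock, each against control. The summed level of 7 shoot markers was 10665 ± 816 CPM in primed heat shock, 8853 ± 525 CPM in heat shock, 10403 ± 1781 CPM in priming and 7101 ± 266 CPM in control seedlings. Of the shoot markers 5 rose in priming and 4 in heat shock, and 0 fell in either. With total counts alone as the scale the direction turned, and 0 rose and 6 fell in priming and 0 rose and 2 fell in heat shock. With 1 library left out, the root markers that fell in priming numbered 2 (without priming replicate 2 or 3) to 6 (without priming replicate 1). Those that fell in heat shock numbered 0 to 2, with 0 in 5 of the 12 omissions (priming replicate 2, heat shock replicates 1 and 2, primed heat shock replicates 2 and 3). The shoot markers that rose numbered 3 to 5 in priming, with 3 without control replicate 2, priming replicate 1, heat shock replicate 2 or 3 or primed heat shock replicate 1. In heat shock they numbered 1 (without heat shock replicate 2 or 3) to 5, with 2 without any 1 of the control replicates. The part of these organs in the members' values was not tested.

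Enzymes that build the arabinogalactan chains, together with prolyl hydroxylases, formed a list of 22. In priming 2 of them rose and 9 fell, in heat shock 3 rose and 9 fell, and in primed heat shock against heat shock 0 rose and 5 fell, with median log2 changes of -0.26, -0.09 and -0.09. These counts stand beside 26.7% of all sequences that rose and 27.1% that fell in priming, 27.9% and 24.5% in heat shock, and 12.1% and 10.7% in primed heat shock against heat shock. With total counts alone as the scale 0 rose and 20 fell in priming, 0 rose and 15 fell in heat shock, and 0 rose and 2 fell in primed heat shock against heat shock. Without control replicate 2 or priming replicate 3, 0 of them rose in priming, and without control replicate 1 or priming replicate 2, 1 rose. GALT29A, a galactosyltransferase, fell to 0.640 ± 0.190 CPM in priming against 3.75 ± 0.373 CPM in control seedlings. GLCAT14A, which adds glucuronic acid, fell to 4.16 ± 0.600 CPM in priming and 6.27 ± 0.121 CPM in heat shock seedlings, against 12.5 ± 0.615 CPM in control seedlings. AT1G33430, annotated as a galactosyltransferase family protein, fell in priming by 3.35 ± 0.40 and rose in heat shock by 0.91 ± 0.27 on the log2 scale, each against control, with the rise not called when total counts alone were the scale. FUT4, a fucosyltransferase, fell in primed heat shock to 5.82 ± 0.860 CPM against 10.5 ± 1.03 CPM in heat shock seedlings, and P4H5, a prolyl hydroxylase, fell to 16.4 ± 0.743 CPM against 24.3 ± 1.82 CPM in the same comparison.

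Of 5 genes for GPI anchoring and its cargo, 1 rose and 4 fell in priming, where 26.7% of all sequences rose and 27.1% fell. In heat shock 2 of these 5 genes rose and 2 fell, where 27.9% of all sequences rose and 24.5% fell. With total counts alone as the scale, 0 rose and 5 fell in priming and 0 rose and 3 fell in heat shock. Without control replicate 1 or 3, 0 rose in priming and 1 in heat shock, without priming replicate 2, 0 rose in priming, and without heat shock replicate 2, 1 fell in heat shock. COB (COBRA), a GPI-anchored protein that orients cellulose, fell to 38.2 ± 5.15 CPM in primed heat shock seedlings against 48.4 ± 3.22 CPM in heat shock seedlings, and to 55.4 ± 2.78 CPM in priming against 97.8 ± 7.68 CPM in control seedlings. Its call in primed heat shock against heat shock was lost without heat shock replicate 1 or 3 or primed heat shock replicate 1 or 3, and with total counts alone as the scale. SETH1, of the first step of anchor synthesis, fell in priming by 1.56 ± 0.40 and rose in heat shock by 1.08 ± 0.32 on the log2 scale, at 0.110 CPM in priming, 0.748 CPM in heat shock and 0.350 CPM in control seedlings, and its rise too was not called with total counts alone.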

How the data were processed

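Total RNA of whole seedlings was depleted of ribosomal RNA and made into strand-specific libraries, per the labels' protocols. The deposited files give raw read counts for each reference sequence, with both mates of a pair counted, beside the sequence length in bases, another column of the deposited files. Per the submitters' processing notes the authors used Bowtie2, SAMtools and DESeq2 with build TAIR10; versions, roles and a strand setting are not given in the sources used here. Reads of 17 ribosomal RNA sequences (0.421% to 0.934% of aligned reads) and unplaced reads were left out.

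All 12 libraries were fitted together with edgeR 4.0.16 in R 4.3.3 (TMM factors, filterByExpr at a minimum count of 10, robust quasi-likelihood test, group means), with Benjamini-Hochberg adjustment over 26159 sequences and a threshold of 0.05. SE is the absolute log2 change divided by the square root of F. The biological coefficient of variation was 0.143, and the fit was tested on simulated data. Replicates of every group differed beyond counting noise (chi-square over degrees of freedom, 15.5 to 125). Harvest dates, per the labels, pair the replicate numbers. Deviations of same-numbered libraries from their group means correlated by -0.092 to 0.168. Symbols, coordinates and sequences came from RefSeq's TAIR10.1, whose gene models can differ from the deposited sequences. Tables and figures were made with Python 3.11.15, pandas 2.3.3, numpy 2.4.6 and matplotlib 3.10.9.

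The members and gene lists were chosen with earlier results of these data known. Named are all members, up to 14 other FLA and AGP genes with at least 5 CPM in a group and a call (largest changes first), up to 3 genes per list and comparison, and the 8 genes most like the members by Pearson's r of log2(CPM + 0.1). Values are given for part of these. Alternatives were RLE, upper-quartile and no scaling factors, nuclear loci alone, no filter, DESeq2 1.42.0, ribosomal RNA kept, the replicate block and leaving out each library.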

Additional observations from a re-analysis of the deposited data

How the results depend on the processing

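The replicate number as a block (harvest date) was the paired fit. It gave FLA13 a log2 change of 1.05 in primed heat shock against heat shock and -0.82 in heat shock against control, so that 1 member was called higher in primed heat shock against heat shock where the fit of group means called 0, and it took the root markers that fell in heat shock against control to 0, from 1. No other count of calls printed for the lists moved by over 1.5 times under it. The same count was 1 with nuclear loci alone, with DESeq2 and with no scaling factor, and 0 to 2 when 1 library was left out. No scaling factor (total counts only) moved the median log2 change of all sequences to -0.88 in priming against control, -0.48 in heat shock against control, 0.12 in primed heat shock against heat shock, -0.33 in primed heat shock against control, 0.43 in heat shock against priming and 0.57 in primed heat shock against priming. Under it, FLA13 turned to -0.73 in priming against control and FLA9 to 0.36 in heat shock against priming. In the order higher and lower, sequences called became 1243 and 18144 in priming against control, 3823 and 13299 in heat shock against control, 4834 and 10989 in primed heat shock against control, and 14074 and 2397 in primed heat shock against priming, with 1451 lower in primed heat shock against heat shock and 2848 lower in heat shock against priming. Other FLA and AGP genes became 6 higher and 24 lower in priming, and 6 higher in heat shock, against control. Glycosylation and wall genes became 0 higher and 66 lower in priming against control, 0 higher in heat shock against control and 10 lower in primed heat shock against heat shock. Members became 1 higher and 3 lower in heat shock against priming and 1 higher in primed heat shock against priming. With 1 library left out in turn, glycosylation and wall genes called higher ranged from 5 (without control replicate 2) to 9 in priming against control and from 4 (without heat shock replicate 3 or primed heat shock replicate 1) to 9 in primed heat shock against heat shock. Sequences called lower in primed heat shock against heat shock ranged from 1851 (without primed heat shock replicate 1) to 3262, and members called higher in primed heat shock against priming from 0 to 1. Priming against control for FLA1 passed the threshold in all fits but those without control replicate 3 or priming replicate 2, while FLA9 missed it without the filter on low counts and in 9 of the 12 omissions in that comparison, and in heat shock against control without the filter, with upper-quartile factors and in 3 omissions (control replicate 1, heat shock replicate 2 or heat shock replicate 3). The members were chosen on these values, so nothing is read from their calls, or from counts of them, in any fit. The causes of the shifts between fits were not tested. Depth limits AGP4 most, with 31 to 66 reads per primed heat shock library.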

Other observations

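Counts of wall genes stand beside 26.7% of all sequences that rose and 27.1% that fell in priming against control, 27.9% and 24.5% in heat shock against control, and 12.1% and 10.7% in primed heat shock against heat shock. Of 9 expansins, which loosen the wall, 0 rose and 8 fell in priming against control, and 0 rose and 9 fell in heat shock against control (edgeR, adjusted p under 0.05 over all sequences). EXPA6 fell to 10.7 ± 2.42 CPM in priming and 7.91 ± 0.643 CPM in heat shock, against 29.2 ± 8.41 CPM in control seedlings. In primed heat shock against heat shock 1 expansin rose, EXPA3, to 29.0 ± 1.21 CPM against 12.3 ± 0.315 CPM. EXPA3 had 7.99 ± 1.49 CPM in priming and 23.7 ± 12.4 CPM in control seedlings. Of 16 XTH genes, which cut and rejoin xyloglucan, 4 rose and 7 fell in priming, 0 rose and 13 fell in heat shock, and 4 rose and 6 fell in primed heat shock against heat shock, but 0 rose and 10 fell in priming with total counts alone as the scale. XTH22 rose in priming to 72.8 ± 33.1 CPM against 24.3 ± 7.45 CPM in control seedlings, a call lost with total counts alone as the scale and without control replicate 1 or 2 or priming replicate 1. Of 11 genes for cellulose synthesis, 1 rose and 8 fell in priming and 0 rose and 9 fell in heat shock, and 0 rose in priming without control replicate 2 or priming replicate 1. On the scale of total counts alone, 0 rose and 11 fell in each. CESA2, a cellulose synthase, fell in heat shock to 79.5 ± 5.88 CPM against 139 ± 16.3 CPM in control seedlings.

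Of 5 secondary wall genes, 1 rose and 4 fell in priming, 0 rose and 5 fell in heat shock, and 2 rose and 0 fell in primed heat shock against heat shock, where 0 rose without heat shock replicate 3 or primed heat shock replicate 1 and 1 without primed heat shock replicate 2. Scaled by total counts alone, 0 of these 5 rose and 5 fell in priming, and 1 rose in primed heat shock against heat shock. Of 6 extensins and proline-rich proteins, 0 rose and 1 fell in priming, 0 rose and 5 fell in heat shock, and 0 rose and 3 fell in primed heat shock against heat shock. Leaving out heat shock replicate 2 left 2 of them falling in heat shock, and leaving out heat shock replicate 1 or control replicate 2 or 3 left 3. In priming 4 fell without priming replicate 1, and 2 without replicate 1 or 3 of heat shock or of primed heat shock. With total counts alone as the scale 0 of the 6 rose and 6 fell in priming. EXT3 fell to 8.38 ± 0.962 CPM in primed heat shock against 25.97 ± 9.52 CPM in heat shock seedlings, and EXT4 to 3.90 ± 0.874 CPM against 11.6 ± 1.34 CPM.

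A few FLA and AGP genes were near 0 in control seedlings and higher at 43 °C, named after their values were seen. FLA20 had 1.37 ± 0.0424 CPM in primed heat shock, 1.23 ± 0.0784 CPM in heat shock, 0.0598 ± 0.00541 CPM in priming and 0.00372 ± 0.00644 CPM in control seedlings. FLA14 had 1.02 ± 0.286 CPM in primed heat shock, 0.945 ± 0.0636 CPM in heat shock, 0.200 ± 0.0647 CPM in priming and 0.00324 ± 0.00562 CPM in control seedlings. AGP11, known from pollen, had 0.533 ± 0.0576 CPM in primed heat shock, 0.455 ± 0.0461 CPM in heat shock, 0.0459 ± 0.0497 CPM in priming and 0.0314 ± 0.0126 CPM in control seedlings (SD, n = 3 each). Over all sequences 27.9% rose and 24.5% fell in heat shock against control. Of 6 pollen markers, all among the 42 other FLA and AGP genes counted above, 4 rose and 0 fell there, and 2 rose without control replicate 2. Scaled by total counts alone, 2 rose and 1 fell. AGP24 is on that list and had 2.73 ± 0.383 CPM in primed heat shock, 7.22 ± 1.77 CPM in heat shock, 20.2 ± 5.43 CPM in priming and 9.50 ± 1.81 CPM in control seedlings. The other pollen markers were near 0 in control seedlings and could pass the filter on low counts only through heated groups. Among them AGP6 had 0.0238 CPM in heat shock and 0.0337 CPM in control seedlings.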
